A study of Mus musculus with 4 samples.

Results

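Transcription factors of fat cell formation were represented by 10 genes. *Pparg*, *Cebpa*, *Cebpb*, *Cebpd*, *Klf4*, *Klf5*, *Zfp423*, *Ebf1*, *Ebf2* and *Srebf1* were taken by symbol from the 32285 genes counted in each of 4 single-cell RNA sequencing libraries. They were taken by name, with earlier results of these data known, and each had a single row in the count tables. De-differentiated fat (DFAT) cells are fibroblast-like cells that arise when floating adipocytes attach to the ceiling of a filled flask and lose their lipid. The iWAT_DFAT and eWAT_DFAT libraries held cultured DFAT cells from inguinal and from epididymal white adipose tissue. The iWAT_ASPC and eWAT_ASPC libraries held cultured cells of the stromal vascular fraction, the pellet left when adipocytes are floated off, from the same depots, which the study calls adipose stem and progenitor cells (ASPCs). The donors were C57BL/6J mice on chow diet, all male, with no transgene named. All cultures were trypsinized and sorted after staining with 7-AAD, a dye that enters dead cells, and the labels name no differentiation treatment. The age of the mice and the number of animals behind a library are not given in the sources used here. Each condition had 1 library, so the spread between cultures is unknown and all intervals below cover counting error only.

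Adipogenesis runs as a relay of transcription factors. C/EBPβ and C/EBPδ, bZIP proteins induced soon after a hormonal stimulus, together with Krüppel-like factors, switch on *Pparg* and *Cebpa*, whose products then maintain each other and drive the genes of lipid storage. ZFP423 and the early B cell factors EBF1 and EBF2 mark cells of the adipose lineage before that switch, and SREBP-1, the product of *Srebf1*, promotes fatty acid synthesis.

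The regulatory sequence before a start site is shown for 4 members, because the relay begins at *Cebpb* and *Klf4* and ends at *Pparg* and *Cebpa*, and the libraries differed at all 4. RefSeq windows on GRCm38.p6 were found for 7 of the 10 members. No window was used for *Cebpd*, *Klf5* and *Ebf2*. Each line gives the 250 bases before the start, 5′ to 3′ on the gene's strand, and none of these bases lies in an exon of GENCODE M21. The positions are chr6:115421816-115422065 on the plus strand for *Pparg*, chr7:35119043-35119292 on the plus strand for *Cebpa*, chr2:167688665-167688914 on the plus strand for *Cebpb* and chr4:55532476-55532725 on the minus strand for *Klf4*. Capitals mark matches on either strand to CCAAT (the CCAAT box), TATAAA (the TATA box), GGGCGG (the GC box bound by SP and KLF proteins), TTGCNNAA (a C/EBP-type motif) or GGAATTTCC (an NF-κB-type site).
Pparg, most downstream start: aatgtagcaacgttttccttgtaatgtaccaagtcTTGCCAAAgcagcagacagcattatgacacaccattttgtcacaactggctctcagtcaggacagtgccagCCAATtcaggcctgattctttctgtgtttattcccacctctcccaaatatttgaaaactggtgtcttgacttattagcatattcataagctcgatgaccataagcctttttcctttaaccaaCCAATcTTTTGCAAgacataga
Cebpa: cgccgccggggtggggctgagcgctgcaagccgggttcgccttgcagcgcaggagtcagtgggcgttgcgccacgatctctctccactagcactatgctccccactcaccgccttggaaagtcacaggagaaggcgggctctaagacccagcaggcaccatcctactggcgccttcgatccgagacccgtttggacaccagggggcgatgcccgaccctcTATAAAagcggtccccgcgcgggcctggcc
Cebpb: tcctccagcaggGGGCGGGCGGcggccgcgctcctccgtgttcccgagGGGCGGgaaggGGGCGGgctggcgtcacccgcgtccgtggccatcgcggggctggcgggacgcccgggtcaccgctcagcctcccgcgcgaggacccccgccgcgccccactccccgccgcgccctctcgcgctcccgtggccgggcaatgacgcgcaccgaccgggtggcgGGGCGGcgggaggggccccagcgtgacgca
Klf4: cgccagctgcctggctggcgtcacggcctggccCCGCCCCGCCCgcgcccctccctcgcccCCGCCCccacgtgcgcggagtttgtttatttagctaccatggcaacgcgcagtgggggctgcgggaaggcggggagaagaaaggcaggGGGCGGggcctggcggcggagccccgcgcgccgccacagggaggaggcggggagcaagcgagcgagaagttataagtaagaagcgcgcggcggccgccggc
The *Pparg* window lies inside the gene, 60922 bases downstream of its first RefSeq start, and holds 2 CCAAT and 2 TTGCNNAA matches. The second of these TTGCNNAA matches covers bases 16 to 9 before the start. The other *Pparg* windows, not shown, hold no TTGCNNAA match. The window at the first start has 1 GGGCGG match. The window of the start 1205 bases downstream of it has 1 CCAAT, 1 TATAAA and 2 GGGCGG matches. TTGCNNAA occurred in 9.56% and CCAAT in 33.8% of all 32851 windows of this length. The *Cebpa* window has 1 match, a TATAAA at bases 30 to 25 before the start, a motif held by 12.4% of windows. GGGCGG, found in 32.7% of windows, matched 5 times before *Cebpb* and 4 times before *Klf4*, with overlapping matches in both. GGAATTTCC was in none of the members' 13 windows and in 0.286% of all windows. A match is only a run of letters, and 3′ counting does not show which *Pparg* start was used.

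Between 6464 and 7629 cells per library passed the filter of 5000 to 75000 UMIs, 200 to 7500 genes and under 10% mitochondrial UMIs, with 183664704 to 199357348 UMIs in cells and median depths of 22111 to 27617 UMIs. A UMI is a molecular tag that counts each captured transcript once. Levels are UMIs summed over the cells of a library and scaled to 1000000 (CPM), and the library with the lowest depth per cell was iWAT_DFAT. Stromal markers, 3 or more of 11, were detected in 94.8% to 99.5% of cells. *Pdgfra*, which marks ASPCs, stood at 246 CPM in iWAT_DFAT, 95.2 in eWAT_DFAT, 84.5 in iWAT_ASPC and 82.5 in eWAT_ASPC. Pairs of libraries shared 13 to 20 cell barcodes. The count tables of iWAT_ASPC name another Cell Ranger version than the others, and counting with introns raises genes with long introns. Genes with over 200 kb outside exons took 5.10% of UMIs in iWAT_DFAT, 3.72% in eWAT_DFAT, 3.93% in iWAT_ASPC and 3.75% in eWAT_ASPC. Whether introns were counted alike in all libraries was not tested.

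*Cebpb*, which encodes one of the first factors induced in adipogenesis, measured 710 CPM (95% Poisson interval 706 to 714) in iWAT_DFAT, 467 (464 to 470) in eWAT_DFAT, 176 (174 to 178) in iWAT_ASPC and 358 (356 to 361) in eWAT_ASPC. Both DFAT libraries were above both ASPC libraries, and the depot order was reversed between the culture types. DFAT cells exceeded ASPCs 4.03-fold in iWAT (log2 2.01, 2.00 to 2.03) and 1.30-fold in eWAT (log2 0.38, 0.37 to 0.40). After each cell was thinned to 5000 UMIs, *Cebpb* had a UMI in 93.4%, 82.0%, 53.3% and 74.9% of cells, in the same order of libraries as above.

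*Cebpd*, its partner of the first wave, measured 315 CPM (312 to 317) in iWAT_DFAT, 95.5 (94.1 to 96.9) in eWAT_DFAT, 144 (142 to 146) in iWAT_ASPC and 237 (235 to 239) in eWAT_ASPC. The DFAT libraries thus held the highest and the lowest of the 4 values, with the ASPC libraries between them. DFAT cells were 2.19-fold above ASPCs in iWAT (log2 1.13, 1.11 to 1.15) and 2.48-fold below them in eWAT (log2 -1.31, -1.34 to -1.29). The direct ratio of iWAT_DFAT to eWAT_DFAT was 3.30-fold (log2 1.72, 1.70 to 1.75), while iWAT_ASPC lay 1.64-fold below eWAT_ASPC.

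*Klf4*, a zinc finger gene best known from pluripotent cells that acts before *Cebpb* in cultured preadipocytes, measured 123 CPM (122 to 125) in iWAT_DFAT, 39.1 (38.3 to 40.1) in eWAT_DFAT, 122 (121 to 124) in iWAT_ASPC and 94.4 (93.1 to 95.8) in eWAT_ASPC. A single library was low. In iWAT the ratio of DFAT cells to ASPCs was 1.01 (log2 0.01, -0.01 to 0.04), an interval that includes no difference and that other scalings moved to either side of it. eWAT_DFAT was 2.41-fold below eWAT_ASPC (log2 -1.27, -1.31 to -1.23) and 3.15-fold below iWAT_DFAT.

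*Klf5*, which in adipogenesis acts between the C/EBP factors and *Pparg*, measured 3.33 CPM (3.07 to 3.60) in iWAT_DFAT, 7.70 (7.31 to 8.11) in eWAT_DFAT, 9.04 (8.63 to 9.47) in iWAT_ASPC and 18.4 (17.8 to 19.0) in eWAT_ASPC. DFAT cells were below ASPCs by a close factor in the 2 depots, 2.72-fold in iWAT (log2 -1.44, -1.58 to -1.31) and 2.39-fold in eWAT (log2 -1.26, -1.35 to -1.17). The iWAT library was also 2.32-fold under the eWAT library in DFAT cells and 2.04-fold under it in ASPCs. In iWAT_DFAT 1.18% of thinned cells (0.950% to 1.45%) had a *Klf5* UMI, beside 1.23% (0.149% to 4.36%) of 163 cells with neural markers (median depth 22111 and 11501 UMIs before thinning). These 163 cells are pooled over the libraries, with 143 from iWAT_ASPC and 18 from iWAT_DFAT. The few *Klf5* UMIs of iWAT_DFAT were unevenly spread over its cells, as the marker programs below show.

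**Figure D1:**
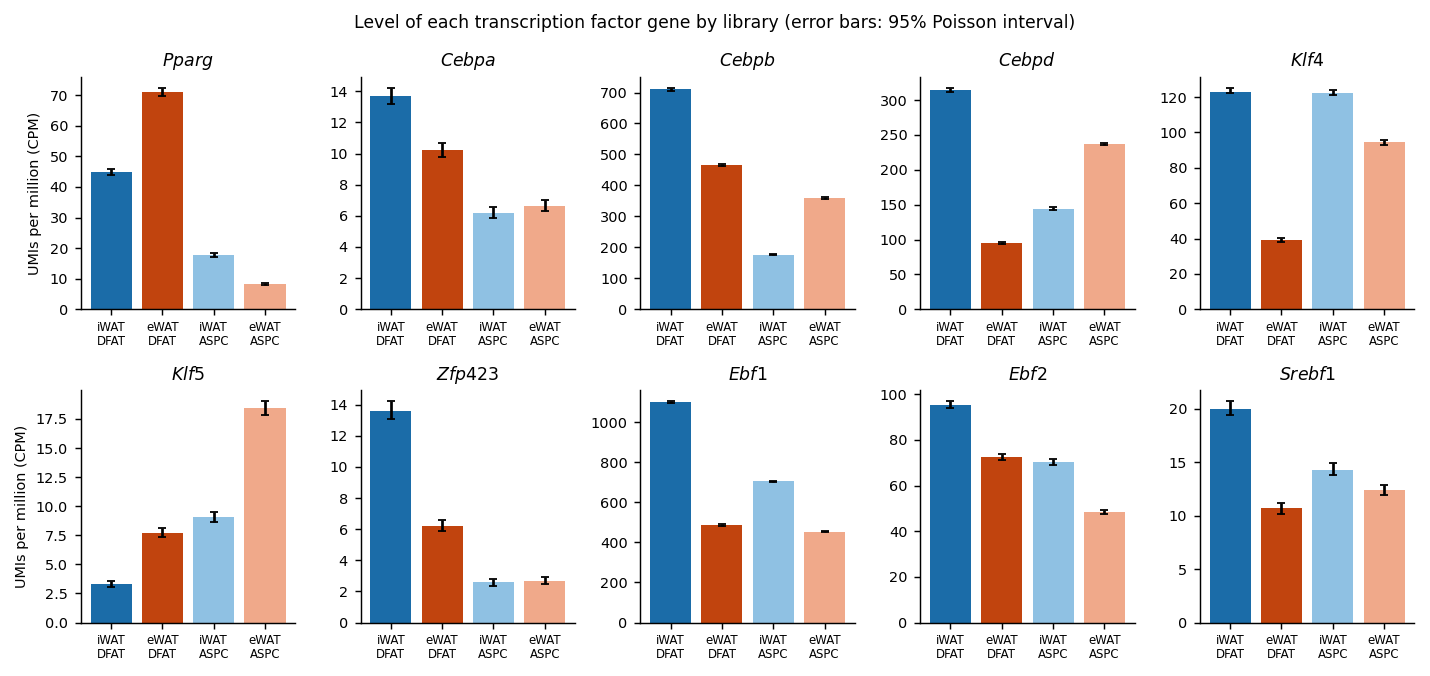
Level of each of the 10 genes in the 4 libraries, in UMIs scaled to 1000000 (CPM), on axes that start at 0, with 95% Poisson intervals as error bars and 1 bar per library. *Pparg* is highest in the eWAT_DFAT library at 71.1 CPM, *Cebpb*, *Cebpd*, *Zfp423* and *Ebf1* are highest in iWAT_DFAT, and *Klf5* is highest in eWAT_ASPC at 18.4 CPM.

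*Zfp423*, which encodes a zinc finger protein that primes preadipocytes for *Pparg* expression, measured 13.6 CPM (13.1 to 14.2) in iWAT_DFAT, 6.23 (5.88 to 6.60) in eWAT_DFAT, 2.58 (2.36 to 2.82) in iWAT_ASPC and 2.68 (2.46 to 2.92) in eWAT_ASPC. The ASPC libraries did not differ beyond counting error (log2 -0.05, -0.23 to 0.12), and both DFAT libraries lay above them. The ratio of DFAT cells to ASPCs was 5.28 in iWAT (log2 2.40, 2.26 to 2.54), above the ratios of 96.7% of the genes compared, and 2.32 in eWAT (log2 1.22, 1.07 to 1.37). The eWAT ratio dropped to log2 0.82 without the cells that carried markers of another cell type. In the ASPC libraries 1.33% and 1.38% of thinned cells had a UMI, beside 0.613% (0.0155% to 3.37%) of the 163 cells with neural markers and 0.341% (0.0413% to 1.23%) of 587 cells with mesothelial markers. The share was higher, at 11.6% (8.63% to 15.1%), in 406 cells with endothelial markers. Those cells held 28.3 CPM in iWAT_ASPC and 14.7 in eWAT_ASPC, against 2.59 and 2.64 CPM in cells with stromal markers, a group that can include some of them.

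*Ebf1*, which encodes an early B cell factor of the adipose lineage, measured 1098 CPM (1093 to 1103) in iWAT_DFAT, 486 (483 to 490) in eWAT_DFAT, 704 (700 to 707) in iWAT_ASPC and 453 (450 to 456) in eWAT_ASPC. The depots separated the libraries, with iWAT above eWAT in DFAT cells (2.26-fold, log2 1.17, 1.16 to 1.19) and in ASPCs (1.55-fold, log2 0.64, 0.62 to 0.65). DFAT cells exceeded ASPCs 1.56-fold in iWAT. In eWAT the ratio was 1.07 (log2 0.10) and turned to log2 -0.02 once cells with markers of another cell type were left out.

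*Ebf2*, its paralog, known as a marker of beige and brown fat precursors, measured 95.4 CPM (94.0 to 96.8) in iWAT_DFAT, 72.4 (71.2 to 73.7) in eWAT_DFAT, 70.3 (69.2 to 71.5) in iWAT_ASPC and 48.5 (47.5 to 49.5) in eWAT_ASPC. No comparison reached 2-fold. The ratios of DFAT cells to ASPCs were close in iWAT (1.36, log2 0.44, 0.41 to 0.47) and eWAT (1.49, log2 0.58, 0.54 to 0.62), and eWAT_DFAT and iWAT_ASPC were neighbours in the order with overlapping intervals.

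*Ebf1*, *Ebf2* and *Zfp423* are long genes, with 381.0, 190.7 and 292.2 kb outside their exons. *Pparg* has 126.5 kb. Over the 749 genes with more than 200 kb outside exons, which include *Ebf1* and *Zfp423*, the median log2 ratio was 0.35 for iWAT_DFAT over iWAT_ASPC and 0.37 for iWAT_DFAT over eWAT_DFAT, against 0.08 over all genes in both. Over the 2875 genes with 50 to 200 kb, which include *Ebf2* and *Pparg*, the medians were 0.22 and 0.19. For eWAT_DFAT over eWAT_ASPC the medians of these 2 groups of genes were 0.18 and 0.15, against 0.08 over all genes. For iWAT_ASPC over eWAT_ASPC the medians were 0.21 and 0.10, against 0.06. The part of this shift in the values of the long members was not tested. *Cebpa*, *Cebpb* and *Cebpd* have no introns.

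*Pparg*, which encodes the nuclear receptor that commits a cell to the adipocyte fate, measured 44.8 CPM (43.8 to 45.8) in iWAT_DFAT, 71.1 (69.9 to 72.3) in eWAT_DFAT, 17.8 (17.2 to 18.4) in iWAT_ASPC and 8.21 (7.81 to 8.62) in eWAT_ASPC. Both DFAT libraries were above both ASPC libraries, and eWAT held both the highest and the lowest value. DFAT cells exceeded ASPCs 2.52-fold in iWAT (log2 1.33, 1.28 to 1.39) and 8.67-fold in eWAT (log2 3.12, 3.04 to 3.19), the latter above the ratios of 98.4% of the genes compared. In thinned cells a UMI was found in 13.1% of iWAT_DFAT, 19.7% of eWAT_DFAT, 6.95% of iWAT_ASPC and 3.74% of eWAT_ASPC cells. Cells with neural markers had one in 0.613% (0.0155% to 3.37%). Without cells that carried markers of another type, adipocyte markers included, the log2 ratios were 1.24 in iWAT and 2.85 in eWAT.

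*Cebpa*, which encodes the factor that sustains *Pparg* in the mature adipocyte, measured 13.7 CPM (13.2 to 14.2) in iWAT_DFAT, 10.2 (9.75 to 10.7) in eWAT_DFAT, 6.18 (5.84 to 6.54) in iWAT_ASPC and 6.64 (6.28 to 7.01) in eWAT_ASPC. DFAT cells were again above ASPCs, 2.21-fold in iWAT (log2 1.15, 1.05 to 1.25) and 1.54-fold in eWAT (log2 0.62, 0.52 to 0.72). The eWAT value was log2 0.22 without cells that carried markers of another type. The ASPC libraries did not differ beyond counting error (log2 -0.10, -0.22 to 0.01).

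*Srebf1*, the lipogenic member, had 3675 UMIs in iWAT_DFAT, a level between 19.4 and 20.7 CPM. It measured 10.7 (10.2 to 11.2) in eWAT_DFAT, 14.3 (13.8 to 14.9) in iWAT_ASPC and 12.4 (11.9 to 12.9) in eWAT_ASPC. Its range across the libraries was narrow. DFAT cells were 1.40-fold above ASPCs in iWAT (log2 0.48, 0.41 to 0.55) and 1.16-fold below them in eWAT (log2 -0.22, -0.30 to -0.13). The share of thinned cells with a UMI, 5.23% to 9.24%, was below the 9.82% (5.72% to 15.5%) of cells with neural markers. The iWAT libraries lay inside that interval and the eWAT libraries just under it.

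The first comparison of the design asks how DFAT cells differ from ASPCs of the same depot. With a gene counted as apart at a 2-fold ratio and at 1 CPM or more in the higher library, 5 of the 10 members (*Pparg*, *Cebpa*, *Cebpb*, *Cebpd* and *Zfp423*) were higher in iWAT_DFAT, where 11.4% of 13344 genes were, and 1 (*Klf5*) was higher in iWAT_ASPC, where 7.23% of genes were. The median log2 ratio was 0.89 over the members and 0.08 over all genes. In eWAT, *Pparg* and *Zfp423* were higher in the DFAT library, 2 members against 8.98% of 13315 genes. *Cebpd*, *Klf4* and *Klf5* were higher in the ASPC library, 3 members against 8.15% of genes. The medians were 0.24 and 0.08. No test of these shares was made, and the members were chosen with earlier results of these data known.

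The second comparison asks how the depots differ. Among DFAT cells, 4 members (*Cebpd*, *Klf4*, *Zfp423* and *Ebf1*) were at least 2-fold higher in iWAT, as were 9.44% of 13349 genes, and *Klf5* alone was higher in eWAT, as were 6.05% of genes. *Pparg* was 1.59-fold higher in eWAT_DFAT (log2 -0.67, -0.71 to -0.63). Among ASPCs, *Pparg* was the 1 member higher in iWAT (2.17-fold, log2 1.11, 1.03 to 1.20), against 5.09% of 13092 genes, and 2 members, *Cebpb* and *Klf5*, were higher in eWAT (each 2.04-fold), against 5.45% of genes. Both calls lay near the limit of 2-fold and were lost under 1 setting each, *Cebpb* at log2 -0.98 without cells that carried markers of another type and *Klf5* at -0.89 without cycling cells. The call of *Zfp423* between the DFAT libraries was lost at log2 0.94 as a mean over cells of each cell's CPM. These depot comparisons use the same libraries as the comparisons of DFAT cells with ASPCs, so the 4 sets of ratios are not independent.

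**Figure D2:**
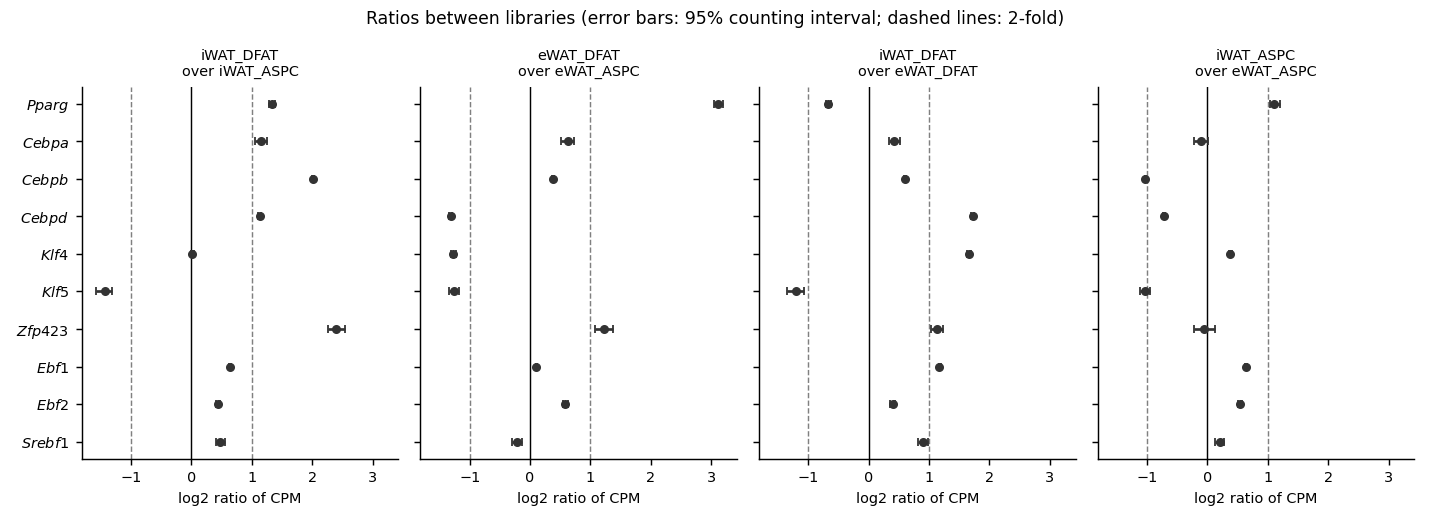
Log2 ratio of CPM for each of the 10 genes in the 4 comparisons, 1 panel each, with 95% counting intervals as error bars and dashed lines at 2-fold. *Pparg* in eWAT lies farthest to the right at 3.12, and *Cebpd* falls on opposite sides of 0 in the panels of DFAT cells over ASPCs, at 1.13 in iWAT and -1.31 in eWAT.

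The ratio of DFAT cells to ASPCs in iWAT was set against that in eWAT. For *Cebpd* the log2 ratios were 2.44 apart (2.41 to 2.47), for *Cebpb* 1.63 (1.61 to 1.65), for *Klf4* 1.28 (1.24 to 1.33) and for *Zfp423* 1.19 (0.98 to 1.39), each higher in iWAT. *Pparg* was the reverse, with a log2 ratio lower in iWAT by 1.78 (difference -1.78, -1.88 to -1.69). For *Klf5* and *Ebf2* the depots were close, with differences of -0.18 (-0.34 to -0.02) and -0.14 (-0.19 to -0.09). The other 3 genes differed by 0.53 (*Cebpa*), 0.54 (*Ebf1*) and 0.70 (*Srebf1*).

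Genes around the relay were read from 4 lists, which were also chosen with earlier results of these data known. Among 19 measured activators of adipogenesis, 6 were higher in iWAT_DFAT than in iWAT_ASPC and 0 lower, 2 were higher and 1 lower in eWAT_DFAT than in eWAT_ASPC, and 9 were higher and 0 lower in iWAT_DFAT than in eWAT_DFAT. The medians were log2 0.64, -0.22 and 0.98. Over all genes 11.4%, 8.98% and 9.44% were higher and 7.23%, 8.15% and 6.05% lower in these comparisons, so the eWAT count was near the share over all genes. *Egr2*, an early inducer of adipogenesis that acts upstream of *Cebpb*, measured 72.7 CPM in iWAT_DFAT, 24.2 in eWAT_DFAT, 10.3 in iWAT_ASPC and 8.22 in eWAT_ASPC. *Klf9*, a later Krüppel-like activator, measured 341, 113, 73.3 and 78.1 CPM in that order. *Ebf3*, the third paralog, followed the depots like *Ebf1*, at 26.7 CPM in iWAT_DFAT and 17.4 in iWAT_ASPC against 4.10 in eWAT_DFAT and 3.40 in eWAT_ASPC. Among 18 activators measured in ASPCs, 1 was higher in each depot, near the 5.09% and 5.45% of all genes.

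Of 20 measured repressors, 1 was higher and 2 were lower in DFAT cells in iWAT (median log2 0.04) and in eWAT (median -0.26). These counts were near the shares over all genes, 11.4% higher and 7.23% lower in iWAT and 8.98% and 8.15% in eWAT, and show nothing particular to repressors. *Dlk1*, the preadipocyte factor that holds back differentiation, was the repressor lower in DFAT cells of both depots, at 3.09 CPM in iWAT_DFAT against 15.5 in iWAT_ASPC and 1.78 in eWAT_DFAT against 4.42 in eWAT_ASPC. *Smad3*, which carries the TGF-β signal that blocks adipogenesis, was 3.31-fold higher in iWAT_DFAT than in iWAT_ASPC. Between the DFAT libraries, 4 repressors were higher in iWAT and 1 in eWAT, and between the ASPC libraries 2 and 1, beside 9.44% and 6.05% of all genes in the former and 5.09% and 5.45% in the latter.

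Between DFAT cells and ASPCs, targets of PPARγ and C/EBPα were the list with the median farthest from that of all genes. In iWAT 10 of 12 measured targets were higher in DFAT cells and 0 in ASPCs (median log2 1.79), and in eWAT 9 of 13 were higher in DFAT cells and 0 in ASPCs (median 1.84). Over all genes 11.4% and 7.23% were so in iWAT and 8.98% and 8.15% in eWAT. A gene of any list counted as measured at 1 CPM or more in the higher library. *Plin1*, *Adipoq* and *Cd36* in iWAT and *Cidec*, *Adipoq* and *Plin1* in eWAT passed this floor through the DFAT library alone. The counts and medians therefore depend in part on this filter. The eWAT count was 5 without cells that carried markers of another type, a group that includes cells with adipocyte markers. Since *Adipoq*, *Plin1* and *Cidec* are both targets and adipocyte markers, a lower count is partly built into that setting. *Plin1*, which coats lipid droplets, measured 13.9 CPM in iWAT_DFAT, 27.3 in eWAT_DFAT, 0.286 in iWAT_ASPC and 0.764 in eWAT_ASPC. *Adipoq*, the adiponectin gene, had 225 UMIs in iWAT_DFAT (1.23 CPM), 2104 in eWAT_DFAT (11.3 CPM), 20 in iWAT_ASPC and 31 in eWAT_ASPC. *Cidec*, which fuses lipid droplets, measured 6.77 CPM in eWAT_DFAT and 0.0709 in eWAT_ASPC. Between the depots, 4 of 13 targets in DFAT cells (median log2 -0.52) and 3 of 10 in ASPCs (median -0.42) were at least 2-fold higher in eWAT, 0 were in iWAT, and the others did not reach 2-fold. Of all genes 6.05% in DFAT cells and 5.45% in ASPCs were higher in eWAT, and 9.44% and 5.09% in iWAT. The DFAT count was 7 as a mean over cells. *Fabp4*, the fatty acid carrier gene of fat cells, stood at 81.0 CPM in iWAT_ASPC and 334 in eWAT_ASPC, the opposite order to *Pparg*. *Lpl*, the lipoprotein lipase gene, stood at 487 CPM in iWAT_DFAT and 399 in eWAT_DFAT.

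Of 12 SREBP-1 targets measured in iWAT, 2 were higher in DFAT cells, and of 13 in eWAT, 4 were, with 0 lower in either (medians 0.48 and 0.08, against 0.08 over all genes in both). Over all genes 11.4% in iWAT and 8.98% in eWAT were higher in DFAT cells, and 7.23% and 8.15% were lower. The iWAT count of 2 and the counts of 0 are near these shares. The eWAT count was 2 without cells that carried markers of another type. *Acss2*, which makes acetyl-CoA from acetate, was 2.89-fold and 7.47-fold higher in DFAT cells in the 2 depots, and *Scd1*, a desaturase, 1.98-fold and 3.00-fold. *Srebf1* itself was lower in eWAT_DFAT than in eWAT_ASPC. Between the DFAT libraries 3 targets were higher in iWAT and 1 in eWAT, and between the ASPC libraries 1 (*Elovl6*, 2.00-fold) was higher in iWAT. The shares of all genes were 9.44% and 6.05% in DFAT cells and 5.09% for the iWAT side in ASPCs, and a count of 1 is near them. The DFAT total of 4 was 2 with median-of-ratios size factors, and the ASPC call was lost under 6 of 10 settings.

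Within a library, cells were ordered by the number of 12 adipocyte markers with a UMI. At least 3 markers were found in 76 iWAT_DFAT cells (0.996%), 259 eWAT_DFAT cells (4.01%), 3 iWAT_ASPC cells and 5 eWAT_ASPC cells. In iWAT_DFAT, *Pparg* was at 30.0 CPM in cells with 0 markers, 74.7 with 1, 151 with 2 and 324 (299 to 350) with 3 or more. In eWAT_DFAT the same steps read 46.0, 90.0, 180 and 375 (361 to 390). *Pparg* thus climbed with every marker in both DFAT libraries, and cells with no adipocyte marker still held more of it than the ASPC cells with none, which had 16.6 CPM in iWAT and 7.51 in eWAT. The cells with 3 or more markers carried 7.78% of the *Pparg* UMIs of iWAT_DFAT and 19.7% of those of eWAT_DFAT. Several of these markers are PPARγ targets, so the ordering is not independent of PPARγ.

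*Cebpa* followed *Pparg*, from 11.1 to 87.5 CPM in iWAT_DFAT and from 6.92 to 66.2 CPM in eWAT_DFAT between cells with 0 and with 3 or more markers. *Cebpd* moved the other way, from 325 to 157 CPM in iWAT_DFAT and from 102 to 44.4 CPM in eWAT_DFAT. *Cebpb* had no common direction, with 716 and 581 CPM in iWAT_DFAT and 463 and 529 CPM in eWAT_DFAT. Within eWAT_DFAT, *Ebf2* stood at 189 CPM and *Klf5* at 1.88 CPM in the cells with 3 or more adipocyte markers, against 71.5 and 7.85 CPM in cells with stromal markers. These groups can share cells.

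**Figure D3:**
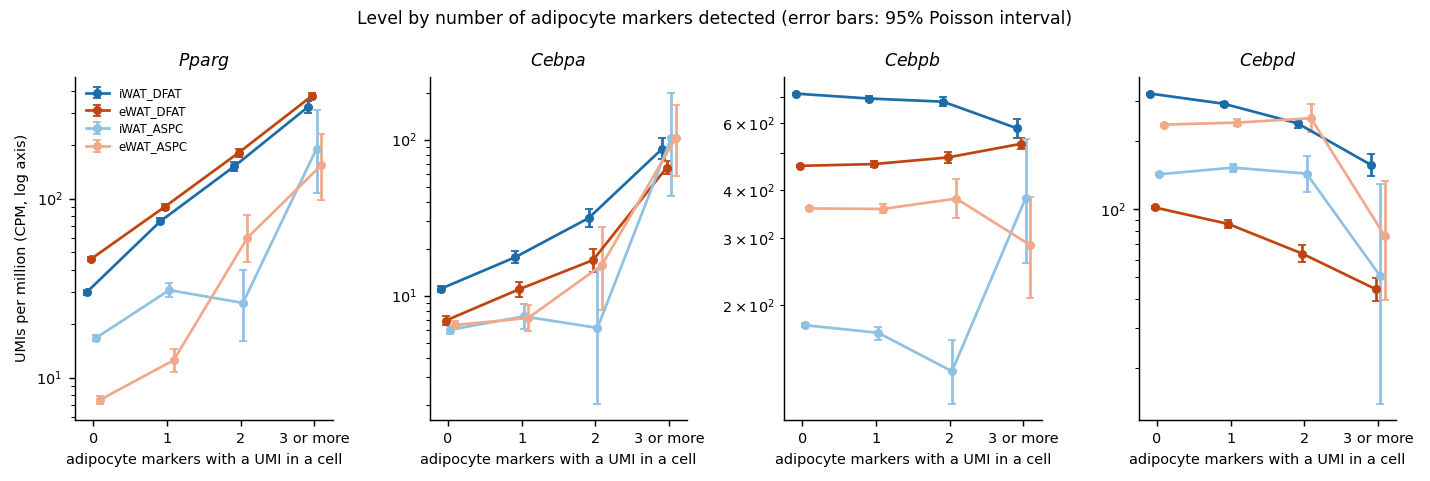
Level of *Pparg*, *Cebpa*, *Cebpb* and *Cebpd* (CPM, log axis) in cells grouped by how many of 12 adipocyte markers had a UMI, 1 line per library, with 95% Poisson intervals. *Pparg* climbs from 46.0 to 375 CPM in eWAT_DFAT and *Cebpd* drops from 102 to 44.4 CPM, while the ASPC points at 3 or more markers rest on 3 and 5 cells.

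Cells were also split within each library by 4 marker programs, and the 25% of cells with the highest summed program level were set against the 25% with the lowest. Every split used all cells of a library, those with markers of other cell types included, and their part in the values was not tested. Against the contractile program of smooth muscle actin genes, *Zfp423* was lower in high cells in 4 of 4 libraries (log2 -2.67 to -0.96). *Cebpa* (-1.96 to -0.17), *Pparg* (-1.95 to -0.07), *Ebf2* (-1.19 to -0.56), *Srebf1*, *Cebpb* and *Ebf1* were also lower in all 4, and the *Pparg* and *Cebpa* intervals of iWAT_ASPC included 0. *Klf5* alone was higher in all 4 (0.24 to 1.55). In eWAT_DFAT, *Pparg* stood at 37.9 CPM in the cells high in contractile genes and 146 in the low ones, and *Zfp423* at 2.30 and 14.6. The cells split there included 259 with adipocyte markers (375 CPM of *Pparg* and 44.5 of *Zfp423*) and 158 with endothelial markers (134 and 23.3). Cells with stromal markers had 67.4 and 5.80 CPM. The program level differed between libraries. High and low cells held 4639 and 563 CPM of it in iWAT_DFAT and 22742 and 2173 in eWAT_DFAT. In iWAT_ASPC they held 33641 and 6352, and in eWAT_ASPC 47394 and 6023. The high cells of iWAT_DFAT were thus below the low cells of both ASPC libraries.

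With the inflammatory program of NF-κB target genes and chemokines, *Cebpb* (log2 0.47 to 0.68), *Cebpd* (0.32 to 0.90), *Cebpa* (0.22 to 0.79), *Srebf1* (0.22 to 0.40) and *Klf4* (0.10 to 0.33) were higher in high cells of every library, with the *Klf4* interval of eWAT_DFAT reaching 0.00. *Klf5* was lower in every library (-1.93 to -0.35). *Pparg* had no common direction, at log2 -0.70 in iWAT_DFAT, 0.02 in eWAT_DFAT, 0.13 in iWAT_ASPC and 1.32 in eWAT_ASPC. The program itself differed between libraries, with 26820 CPM in the high cells of iWAT_DFAT and 20221 in those of eWAT_DFAT against 1678 in iWAT_ASPC and 1687 in eWAT_ASPC.

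The early progenitor program sums 8 genes, among them *Dpp4*, *Pi16* and *Bmp7*, known as markers of the most immature cells of the adipose stroma. The study found *Dpp4* and *Bmp7* barely detected in these cultures, so high cells need not be early progenitors. The summed program went with *Klf4* (log2 0.40 to 1.21) and *Klf5* (0.27 to 0.75) in 4 of 4 libraries. It went against *Zfp423* (-2.04 to -0.60), *Cebpa* (-1.67 to -0.21) and *Cebpb* (-0.50 to -0.16). The intervals reached 0 for *Klf5* in iWAT_DFAT and for *Cebpa* in iWAT_ASPC. *Pparg* was higher in the high cells of iWAT_ASPC (25.2 against 13.9 CPM) and lower in those of eWAT_DFAT (49.4 against 130) and eWAT_ASPC (5.93 against 11.8). The cell cycle program went with lower *Cebpd* (-0.67 to -0.44), *Cebpb*, *Zfp423* and *Ebf1* in every library, though the *Zfp423* intervals of both ASPC libraries included 0. *Pparg* was split by culture type, lower in cycling cells of iWAT_DFAT (log2 -0.20) and eWAT_DFAT (log2 -1.16) and higher in those of iWAT_ASPC (0.54) and eWAT_ASPC (0.38). *Cebpa* showed the same split, and no difference between culture types was tested. Depth moved with these splits too: in the cell cycle split the high cells of iWAT_DFAT had a median of 28144 UMIs and the low ones 18775, and its part in the values was not tested.

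**Figure D4:**
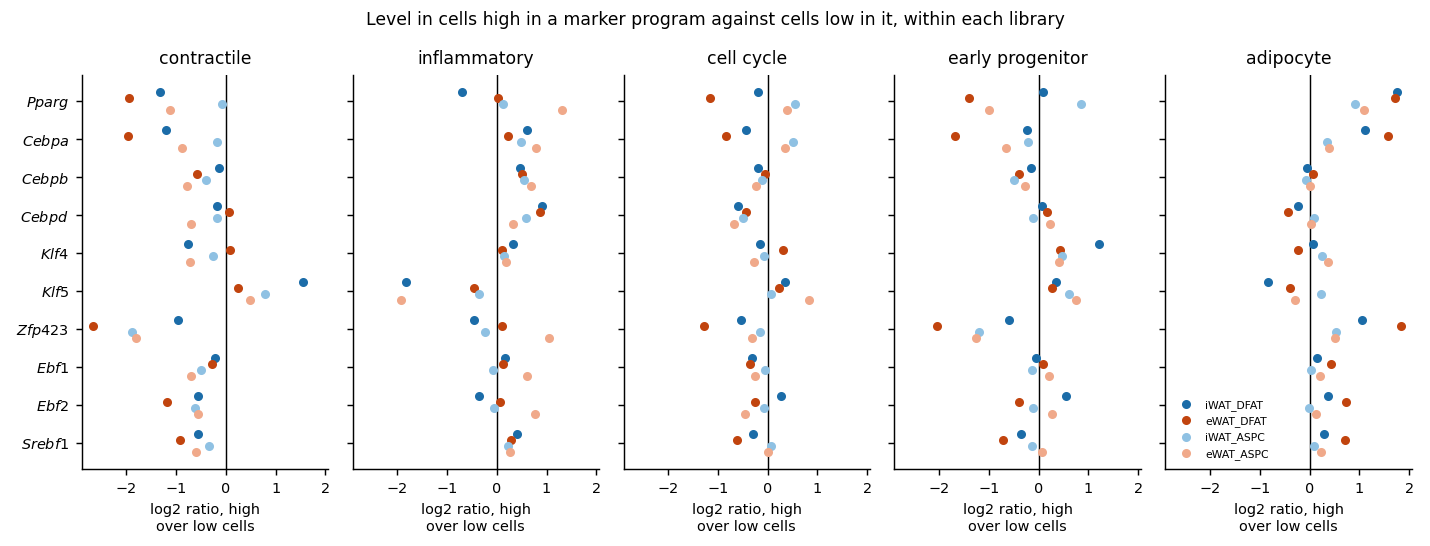
Log2 ratio of each gene's CPM between cells high and low in a marker program, within each library (1 point per library; the adipocyte panel compares cells with and without any marker). In the contractile panel the *Klf5* points lie right of 0 and the *Zfp423* points left of it in all 4 libraries, and in the inflammatory panel *Cebpb* and *Cebpd* lie right of 0 in all 4.

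Some cells carried at least 3 markers of another cell type, adipocyte markers included. They numbered 118 of 7629 in iWAT_DFAT, 481 of 6464 in eWAT_DFAT, 209 of 7424 in iWAT_ASPC and 698 of 6745 in eWAT_ASPC. The groups were not made exclusive, so a cell in one of them can also be among the cells with stromal markers. Cells with endothelial markers numbered 406, cells with mesothelial markers 587 (518 of them in eWAT_ASPC), cells with neural markers 163 and cells with immune markers 33. Thinned *Pparg* was found in 24.4% (20.3% to 28.9%) of the cells with endothelial markers and *Cebpa* in 0.985% (0.269% to 2.50%). The 158 such cells of eWAT_DFAT had 134 CPM of *Pparg* and 430 of *Ebf1*. Within eWAT_ASPC, the cells with mesothelial markers had 500 CPM of *Cebpb*, 69.0 of *Ebf1* and 1.90 of *Pparg*, against 359, 455 and 8.16 in cells with stromal markers. *Klf5* was close in both there, at 17.6 and 18.5 CPM, and stood at 17.0 and 7.85 CPM in the same 2 kinds of cells of eWAT_DFAT, the former 67 cells. The log2 ratio of *Klf5* between eWAT_DFAT and eWAT_ASPC was -1.26 with all cells. It was -1.24 without the cells that carried markers of any other type, adipocyte markers included. The cells with mesothelial markers were not left out alone. In droplets of 1 to 100 UMIs, which hold free RNA, *Pparg* made up 40.0 CPM in iWAT_DFAT, 75.7 in eWAT_DFAT, 13.0 in iWAT_ASPC and 6.48 in eWAT_ASPC, in the order of the cells.

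**Figure D5:**
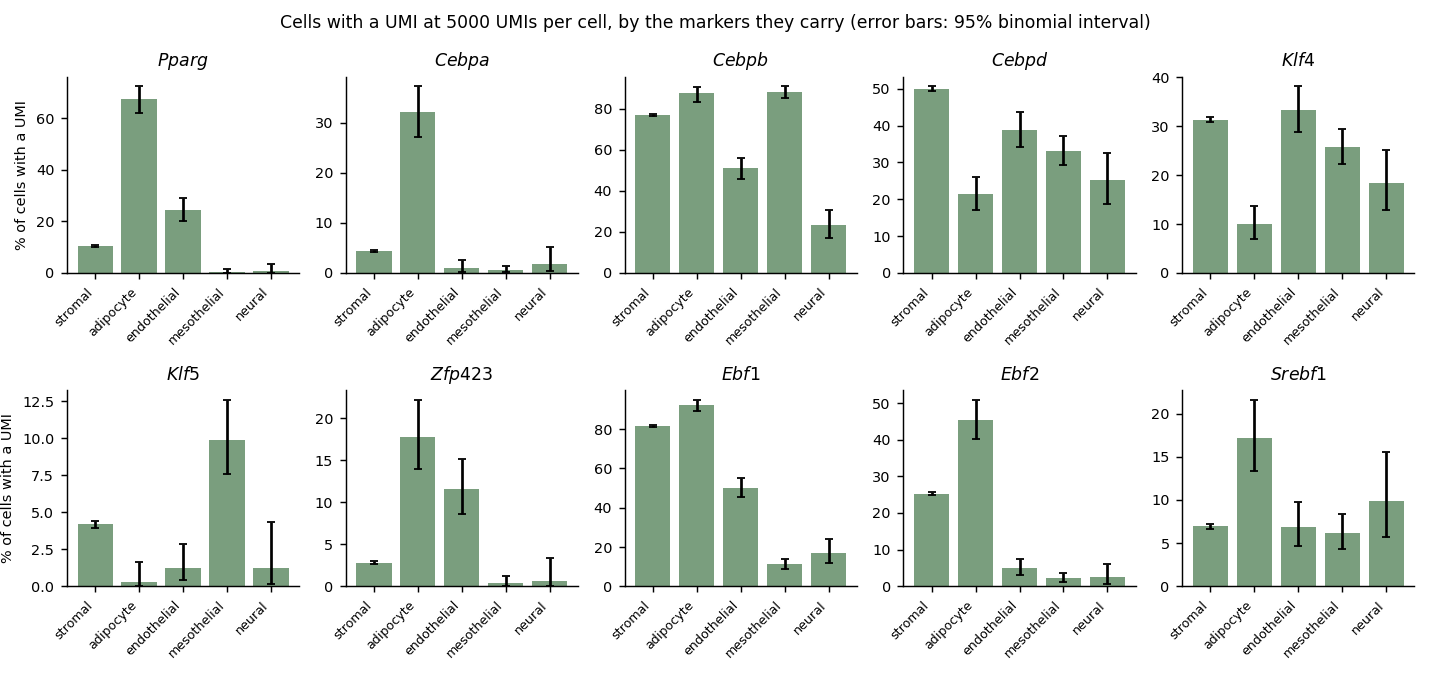
Share of cells (%) with a UMI of each gene after thinning to 5000 UMIs per cell, for cells of all libraries that carried at least 3 markers of a type, with 95% binomial intervals. A cell can be counted under several types. *Pparg* reaches 67.3% in cells with adipocyte markers and 24.4% in those with endothelial markers, and the libraries are pooled, so that the 9.88% of *Klf5* in cells with mesothelial markers comes mostly from eWAT_ASPC, which held 518 of these 587 cells and had the most *Klf5*.

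Among the 8984 genes at 5 CPM or more in every library, those closest to each member across the cells of a library were taken by the median of the 4 Pearson correlations. Cells of a library share its depth and its cell mixture, so these values are descriptions. *Pparg* was closest to *Fabp4* (median r 0.30, from 0.19 to 0.45), *Cobll1* (0.24) and *Prkar2b* (0.20), and *Cebpa* to *G0s2*, *Fabp4* and *Lpl* (each 0.19). *Cebpb* was closest to *Id3* and *Junb* (each 0.31) and *Serpinf1* (0.30), and *Cebpd* to *Adamts5* (0.34), *Vegfd* (0.33) and *Ptx3* (0.32). *Klf4* was closest to the immediate early genes *Klf2* (0.26), *Dusp1* (0.25) and to *Cdkn1a* (0.24), and *Klf5* weakly to *Inhba* (0.15), *Tnfrsf12a* (0.12) and *Bmpr1b* (0.11). The highest values were those of *Ebf1* with *Gpc6* (0.57), *Ext1* and *Rbms3* (each 0.52), genes that span 1051.2, 282.1 and 1057.2 kb beside 390.8 kb for *Ebf1*. *Ebf2* was closest to *Ebf1* (0.36), then to *Gpc6* and *Zeb2* (each 0.29), and *Zfp423* to *Pparg* (0.17), *Ptprm* and *Ldb2* (each 0.16). No gene exceeded a median r of 0.10 with *Srebf1*, where *Scd2* came first, though *Lpl* reached 0.22 in eWAT_DFAT. In eWAT_DFAT *Pparg* correlated with *Ebf2* (0.35), *Zfp423* (0.33), *Cebpa* (0.32) and *Ebf1* (0.29). Each of these pairs had a lower r in every other library, from 0.09 to 0.21. The r of *Pparg* with *Cebpd* was negative in every library (-0.19 to -0.07).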

How the data were processed

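Raw UMI counts per gene and barcode were deposited by the authors for 4 libraries made with 10x 3′ chemistry, 1 per condition, before any cell call or normalization. The study's notes name Cell Ranger 7.0.0 with introns counted. Per the file headers, 3 count tables come from Cell Ranger 7.1.0 and that of iWAT_ASPC names version 4. CellBender, DoubletFinder and the integration named in the study's methods were not run here.

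The 10 members and all gene lists were chosen with earlier results of these data known. Barcodes with 5000 to 75000 UMIs, 200 to 7500 genes and under 10% mitochondrial UMIs were kept as cells, with doublets left in. The study's methods use a lower limit of 500 UMIs, which was run as an alternative. Counts were summed per library and scaled to 1000000 (CPM). Levels carry exact 95% Poisson intervals, shares exact binomial (Clopper-Pearson) intervals and log2 ratios exact conditional binomial intervals, all for counting error only. Differences of log2 ratios carry normal intervals from the summed counts. Conditions were not tested across libraries, of which each has 1, and p-values are not given. A gene was called apart at 2-fold and at 1 CPM or more in the higher library. Shares of cells were taken after thinning each cell to 5000 UMIs, which every cell reached. A cell was said to carry the markers of a type with a UMI of 3 or more of that type's list, and could carry those of several types. Program levels are summed shares of UMIs, and no member is in a program. Of each pathway list, the text names genes among the 3 with the largest absolute log2 ratio in a comparison, and of similar genes the first 3 per member. The repressor *Ddit3* had more than 1 row and was left out, so 21 of 22 repressors were looked up. Several genes, such as *Adipoq* and *Plin1*, are both adipocyte markers and PPARγ targets. Positions of 32235 genes matched GENCODE M21 (GRCm38). The ratio code was tested on simulated data. Alternatives covered the cell filter, doublets (Scrublet at 0.8% per 1000 cells), free RNA (subtracted at 5%), scaling, the weight of cells, other cell types, cycling cells, the fold and the floor (5 CPM). Scanpy 1.11.5, scipy 1.17.1, numpy 2.4.6, matplotlib 3.10.9 and pandas 2.3.3 were used under Python 3.11.15.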

Additional observations from a re-analysis of the deposited data

Results flagged for a closer look

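*Cebpd* went in opposite directions in the 2 depots, with a log2 ratio of DFAT cells over ASPCs of 1.13 in iWAT and -1.31 in eWAT. *Srebf1* did the same on a smaller scale, with 0.48 in iWAT and -0.22 in eWAT. The difference between the depots was not tested, since each of the 4 values behind it comes from 1 library.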

How the results depend on the processing

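Of the 40 log2 ratios, no more than 3 crossed the 2-fold limit under any of 10 settings, and the largest shift was 0.44, reached when cells with markers of another cell type were left out. That setting took *Zfp423* in eWAT DFAT cells over ASPCs from 1.22 to 0.82, *Srebf1* between the DFAT libraries from 0.90 to 1.06 and *Cebpb* between the ASPC libraries from -1.03 to -0.98, and it turned *Ebf1* in eWAT DFAT cells over ASPCs from 0.10 to -0.02. *Klf4* in iWAT DFAT cells over ASPCs turned from 0.01 to -0.07 with median-of-ratios size factors and to -0.02 when the scaling left out mitochondrial genes and the 50 genes with the most UMIs. *Zfp423* between the DFAT libraries was 0.94 as a mean over cells, and *Klf5* between the ASPC libraries was -0.89 without cycling cells. A fold of 1.5 raised the members apart from 5 to 8 between the DFAT libraries and from 3 to 5 between the ASPC libraries, since the limit is lower. Of 16 list counts, the settings moved the totals of PPARγ and C/EBPα targets in eWAT (9 to 5) and between the DFAT libraries (4 to 7), and of SREBP-1 targets in eWAT (4 to 2), between the DFAT libraries (4 to 2) and between the ASPC libraries (1 to 0) by over 1.5 times. With the lower limit of 500 UMIs of the study's methods no ratio shifted by more than 0.01. The cause of the other shifts was not tested. The labels give no replicate numbers, no paired fit over the depots was made, and with 1 library per condition none was left out. Every ratio rests on 1 culture a side, so culture, batch and condition cannot be told apart. Where *Klf5*, *Zfp423*, *Cebpa* or, in eWAT_ASPC, *Pparg* lay under 10 CPM, depth limits them to a few percent of thinned cells. All 40 shares of cells changed at full depth and when at least 2 UMIs were required. For *Pparg* in iWAT_DFAT the share was 13.1% after thinning, 34.4% at full depth and 3.80% with at least 2 UMIs after thinning.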
